A study of Mus musculus with 24 samples.

Results

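The genes described here encode the proteins of the cytosolic ribosome, followed through 24 mouse RNA-seq libraries. Members were all gene symbols that start with Rpl or Rps and a digit, together with Rplp0, Rplp1, Rplp2 and Rpsa. Names with -ps, which mark pseudogene copies, and the 10 Rps6k kinase genes were left out. The rule gave 93 of 52976 symbols, on 19 chromosomes. Of these, 77 are core ribosomal proteins, 46 of the large and 31 of the small subunit. The other 16 are paralogs, copies and related names such as Rpl3l, Rpl22l1, Rpl39l, Rps27l and Rps4l. They include Rps19bp1, which encodes a binding partner of Rps19 and no ribosomal protein.

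The study placed a hydrogel on wounds of diabetic mice and on cultured macrophages. Wound tissue came from control wounds (labelled Diabetic control) and from wounds given the gel Fmoc-KYF-AgNCs-3S1C-Hyd2, each at day 1, day 7 and day 14, with 3 libraries a group. The macrophages were RAW264.7 cells, an established mouse line, in a control group labelled LPS (lipopolysaccharide, a bacterial trigger of inflammation) and a hydrogel group, with 3 libraries each. The 3 hydrogel libraries of the cells carry the gel names Fmoc-KYF-AgNCs-3S1C-Hyd3, -Hyd4 and -Hyd5 and do not name LPS, while the design text describes LPS-induced macrophages. The labels do not settle whether these are different gels, nor whether those cells also received LPS, so the cell comparison below is the libraries labelled hydrogel against those labelled LPS. Strain, age and sex of the mice are not given. Whether replicates are separate animals or cultures is not stated, and p-values therefore cover only library-to-library spread, possibly technical.

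A ribosome joins a small subunit, which reads the mRNA, to a large subunit, which forms the peptide bond. Most core proteins are needed in about equal amounts. The mRNAs of these proteins typically start with a C followed by a run of pyrimidines, the 5′ terminal oligopyrimidine (TOP) tract, through which growth signals set their translation, and Myc is a known activator of their transcription. In macrophages and in healing skin, ribosome supply is tied to growth and protein output.

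The transcript starts are shown first because the TOP tract is the sequence feature this family is known for. RefSeq promoter entries (GRCm38.p6) were matched for 69 of the 93 members, 57 of them core. A tract was searched on the gene's strand as a C at the annotated start followed by at least 4 bases that are each C or T, with no other motif searched. It was found in 13 of the 57 core members (22.8%) and in 3.01% of 27025 symbols. Allowing the tract to begin within 5 bases of the annotated start gave 22 of 57 (38.6%) against 15.6%. Away from the start, a tract counted only where the base before its C was neither C nor T. Runs that follow such a base, as in Rpl12 and Rps26, are therefore left out of these shares. Annotated starts may lie some bases away from the start used, so a missing match says only that no tract was found by these rules. In the 30-base windows below, 10 bases lie before the start and 20 from it on, and capitals mark the tract. The first 4 are from members with a tract at the start, chosen because they recur in the results.
Rps21, chr2:180257369-180257398, plus strand: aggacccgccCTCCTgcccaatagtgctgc
Rps10, chr17:27635225-27635254, minus strand: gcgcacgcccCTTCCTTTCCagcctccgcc
Rps6, chr4:86857348-86857377, minus strand: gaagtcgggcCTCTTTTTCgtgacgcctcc
Rpl35, chr2:39005112-39005141, minus strand: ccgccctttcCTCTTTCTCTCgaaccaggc
Rps27 and its copy Rps27rt both carry a tract and share the bases after it.
Rps27, chr3:90213629-90213658, minus strand: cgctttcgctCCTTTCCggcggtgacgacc
Rps27rt, chr9:114982720-114982749, minus strand: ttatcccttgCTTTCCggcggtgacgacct
In Rpl13a and Rps2 the tract begins after the annotated start, 2 bases and 4 bases on.
Rpl13a, chr7:45128726-45128755, minus strand: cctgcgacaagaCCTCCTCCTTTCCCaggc
Rps2, chr17:24720053-24720082, plus strand: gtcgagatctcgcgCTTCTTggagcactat
Rpl5 and Rps4x, which were lower in the hydrogel cells, have no tract within 5 bases of the annotated start. The same is true of most matched core members, and Rpl7, also lower, had no RefSeq promoter entry.
Rpl5, chr5:107900518-107900547, plus strand: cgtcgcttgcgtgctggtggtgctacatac
Rps4x, chrX:102189372-102189401, minus strand: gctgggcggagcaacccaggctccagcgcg

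Libraries held 12428907 to 27062593 gene counts in the wounds and 17932839 to 23955760 in the cells. Levels are given as CPM, a gene's counts scaled to a common library total after TMM adjustment of library size. Keratinocyte markers were detected in every wound group. Wounds also held high counts of skeletal muscle genes, a summed 7813 to 252636 CPM over 12 markers, against 33 to 44 in the cells. In the cells, 11 macrophage markers summed to 9934 to 10497 CPM in the hydrogel group and 6536 to 6637 in the control group, with C1qb at 0 in the controls. Krt5, Krt14, Krt15, Col3a1 and Pdgfra were at 0 in both cell groups. Other genes of the same lists had counts. The 9 basal keratinocyte markers summed to 69.6 to 81.7 CPM in hydrogel cells and 187.8 to 191.8 in control cells. The 9 fibroblast markers summed to 0.112 to 0.294 and 0.145 to 0.418. In these bulk samples, fewer cells of a type and less RNA per cell cannot be told apart.

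The RAW264.7 control libraries differed from each other by little more than counting noise, with a median chi-square per gene of 0.511 to 0.613 against 0.455 for noise alone. The same held for the day 7 control wounds (0.644 to 0.796), whereas pairs in the other groups reached 1.29 to 34.5. Over the members alone the medians were larger, 1.53 to 3.42 in the control cells and 0.755 to 3.89 in the day 7 control wounds, against 5.64 to 3736 in the other groups. Counts of calls that rest on these groups are therefore also given with their libraries summed to 1 a group (on day 7, in both arms), an alternative chosen after seeing the data. In the wounds, replicate 1 of the day 1 hydrogel, day 14 control and day 1 control groups stood apart from its group over all genes. The median chi-square was 19.8 to 34.5 in its pairs and 7.25 to 8.54 between the other 2 libraries. Over the members this held only in the day 1 hydrogel group (3736 and 3496 against 5.64). Pairs 1-2, 1-3 and 2-3 had 2083, 310 and 467 in day 14 controls and 184, 133 and 226 in day 1 controls. The counts that rest on these 3 libraries are also given without them.

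Together the 93 genes took 3.90%, 3.93% and 3.96% of all counts in the 3 control cell libraries and 6.44%, 6.12% and 5.54% in the 3 hydrogel libraries. The groups did not overlap, and the ratio of the means was 1.53. In day 1 wounds the share was 5.23%, 4.40% and 5.47% in controls and 7.16%, 2.99% and 3.04% in hydrogel wounds, so the hydrogel libraries lay on both sides of the controls. At day 7 it was 6.11%, 6.31% and 6.32% in controls and 5.31%, 6.23% and 5.65% in hydrogel wounds. At day 14 it was 10.4%, 5.98% and 8.07% in controls and 8.32%, 8.77% and 8.88% in hydrogel wounds, inside the control range.

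**Figure D1:**
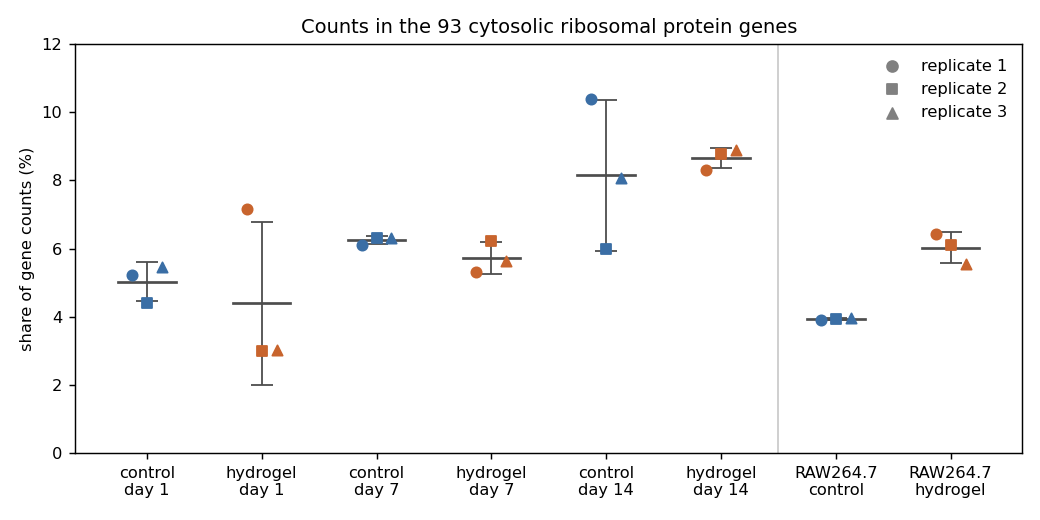
Share of gene counts (%, vertical axis) taken by the 93 ribosomal protein genes in each of the 24 libraries, by group; horizontal lines are means and bars are 1 SD (n = 3). The control cells sit between 3.90% and 3.96% and the hydrogel cells between 5.54% and 6.44%, while hydrogel and control wounds overlap on all 3 days.

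Levels between genes were compared per kilobase of the deposited exon length, which merges all exons of a gene. It can differ from transcript length, as in Rpl41 (1168 against 509 bases) and Rps29 (290 against 390). The order of members may therefore depend on the length used. Rplp1, an acidic protein of the stalk that recruits elongation factors, had the highest such level in all 8 groups. It stood at 2339 ± 90.4 (SD, n = 3) CPM per kilobase in control cells, 4590 ± 886 in hydrogel cells and group means of 2915 to 3876 in the wounds. Rps15 of the small subunit followed in all 6 wound groups. In control cells Rpl4, at 1188 ± 7.15, was next, ahead of Rps3a1 at 1144 ± 10.9 and Rps29 at 1089 ± 57.8, of which the last 2 overlap within their spread. Rpl10l and Rps12l1 had 0 counts in all 24 libraries, and Rpl39l and Rps4l in all 6 cell libraries. Another symbol shares 100% of the exon bases of Rps12l1, and pairs that fit more than 1 gene were not counted. The 0 of Rps12l1 therefore does not show that the gene was silent.

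Some core members have few counts. In control cells the mean was 0.680 CPM for Rpl24, 3.24 for Rps10, 13.2 for Rpl21, 19.4 for Rpl29 and 30.8 for Rpl13a. Read pairs that fit more than 1 place or gene were not counted, 61 members have at least 1 -ps copy (up to 22, for Rps12), and part of the exon sequence is shared with another symbol in some, such as 47.0% in Rpl24 and 31.6% in Rpl13a. The levels and folds of these members are uncertain for that reason. The -ps symbols themselves held 0.160% to 0.525% of counts.

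In RAW264.7 cells the ribosomal protein genes were higher in the hydrogel group almost throughout. Of the 88 members tested, 77 rose and 3 fell by edgeR's quasi-likelihood test at a Benjamini-Hochberg adjusted p below 0.05. Over all 12972 genes tested, 72.5% passed, 34.7% higher and 37.8% lower. The members' median log2 fold change was 0.74 (quartiles 0.48 and 0.92), against -0.04 for all genes. Among core members of the large subunit 40 of 46 rose and 2 fell (median 0.80), and among those of the small subunit 27 of 31 rose and 1 fell (median 0.60). The groups did not overlap in 76 members that were higher and 3 that were lower, shares that stood at 36.0% and 39.9% over all genes.

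**Figure D2:**
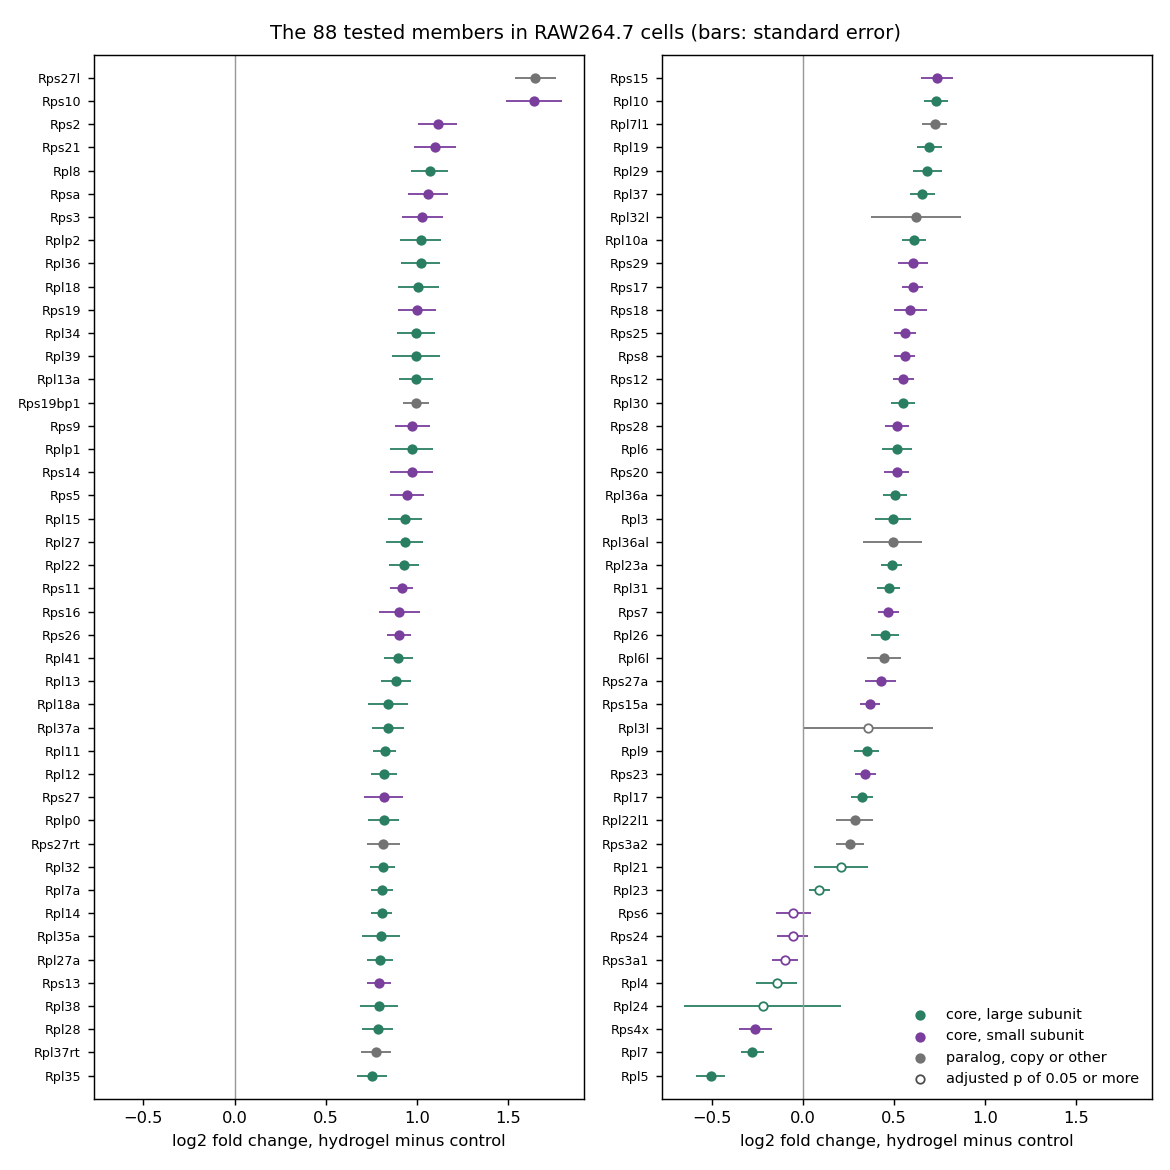
Log2 fold change (horizontal axis, hydrogel minus control; bars are standard errors) of the 88 members tested in RAW264.7 cells, sorted by size and coloured by class, with open points for members whose adjusted p was 0.05 or more. Of these, 77 are called higher and 3 (Rpl5, Rpl7 and Rps4x) lower.

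In the small subunit, Rpsa, which also binds laminin as a cell surface protein, had 3815, 3292 and 2691 CPM in the hydrogel libraries and 1583, 1516 and 1591 in the controls. Every hydrogel library lay above every control, a log2 rise of 1.06 ± 0.11 (SE; adjusted p = 8.65e-06). Rps2, which lines the path by which mRNA enters, had 216, 187 and 152 against 83.6, 88.3 and 84.0, a log2 rise of 1.11 ± 0.11 with no overlap. Rps21 had 464, 401 and 322 CPM against 176, 196 and 181. Its groups were apart as well, with a log2 rise of 1.10. Rps19, mutated in Diamond-Blackfan anaemia, had 892, 796 and 642 against 387, 403 and 375, a log2 rise of 1.00 ± 0.10. The fold of Rps10 was larger but rests on few counts. It had 12.1, 9.91 and 8.58 CPM against 2.80, 3.62 and 3.31, a log2 rise of 1.64 ± 0.15 that was 0.95 when the counts of its -ps copies were added.

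In the large subunit, Rpl8 near the peptidyl transferase centre had 2118, 1877 and 1535 CPM in the hydrogel libraries and 877, 864 and 889.9 in the controls. This was a log2 rise of 1.07 without overlap. The stalk proteins moved alike in direction. Rplp1 had 2727, 2299.8 and 1843 against 1116, 1184 and 1201 (0.97 ± 0.12), and Rplp0, the base of the stalk, had 2115, 1924 and 1642 against 1054, 1076 and 1092 (0.82 ± 0.09). Rpl11, which with Rpl5 and the 5S rRNA can bind Mdm2 and so stabilise p53, had 745, 758 and 672 against 403, 414 and 412, a rise of 0.82 ± 0.06. Rpl13a rose by 1.00, Rpl41, a very short peptide, by 0.90, and Rps29 by 0.60.

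The core members that rose spanned log2 changes from 0.32 to 1.64. At the low end, Rpl17, which lies at the exit of the peptide tunnel, had 471, 528 and 508 CPM in the hydrogel libraries and 391, 410.1 and 403 in the controls. The groups were apart, but the rise was only 0.32 ± 0.06. Rps23, near the decoding centre of the small subunit, had 710.0, 748 and 752 against 570.4, 582 and 591, a rise of 0.34 ± 0.06 with no overlap. Rps15a (0.37) and Rps27a (0.43), which is made as a ubiquitin fusion, were also at this end. At the high end, besides those given above, were Rps3 (1.03), Rplp2 (1.02), Rpl36 (1.02) and Rpl18 (1.01). Rpl36 had 601, 532 and 429.6 against 248, 262 and 259.9, with replicate 1 highest of the hydrogel libraries, whereas in Rpl17 and Rps23 replicate 1 was the lowest of the 3. Among the copies, Rps27rt rose by 0.82 and Rpl37rt by 0.78, and reads of such near-identical copies may be divided between copy and source. Rps19bp1 rose by 0.995.

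3 core members fell, and each was lower in every hydrogel library. Rpl5, which carries the 5S rRNA into the large subunit, had 532, 629 and 663 CPM in the hydrogel libraries and 867, 857 and 868 in the controls, a log2 fold change of -0.51 ± 0.08 (edgeR's quasi-likelihood test, adjusted p = 0.00022). Rpl7 had 637, 713 and 712 against 834, 830.4 and 838 (-0.28 ± 0.06, adjusted p = 0.00245). Rps4x, the X-linked small subunit protein, had 697, 863 and 915 against 994, 998 and 977 (-0.26 ± 0.09, adjusted p = 0.0251). Rps6, the substrate of the S6 kinases, had 715, 877 and 954 against 895, 857 and 889 and did not pass (-0.05 ± 0.09). The others that did not pass were Rpl24 (-0.22), Rpl4 (-0.14), Rps3a1 (-0.10), Rps24 (-0.06), Rpl23 (0.09), Rpl21 (0.21) and the paralog Rpl3l (0.36). With the control libraries summed to 1, an alternative chosen after seeing the data, 70 members were higher and only Rpl5 was lower (-0.52, adjusted p = 0.0142), while Rpl7 (adjusted p = 0.109) and Rps4x (0.190) no longer passed. Over 16 alternatives Rpl5 kept its call in 15, Rpl7 in 13 and Rps4x in 9.

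The fold change of a gene in the cells went with the GC content of its transcript. Across the 77 core members Spearman's rho between GC content and log2 fold change was 0.55 and Pearson's r was 0.54. Over the 12752 genes with a GC value they were 0.48 and 0.45. Genes are not independent replicates and all values share the same 6 libraries, so these are descriptions. With all tested genes cut into 5 equal bins by GC content, the median log2 fold change of genes that are not members was -0.70, -0.32, 0.01, 0.29 and 0.41 from the lowest bin to the highest. The core members' medians in the same bins were 0.00 (2 members), 0.44 (16), 0.67 (22), 0.84 (25) and 0.93 (12), above the other genes in each bin.

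A trend with GC content was also measured between libraries of the hydrogel group. Across the 77 core members, rho between GC content and the log2 ratio of 2 hydrogel libraries was 0.53 for replicate 1 over 2, 0.51 for 1 over 3 and 0.48 for 2 over 3, and between control libraries it was -0.03, -0.10 and -0.04. Replicate 1 held the highest value of the 6 libraries for 47 of the 77 core members and the lowest for 8, among them Rpl5, Rpl7 and Rps4x. With GC content taken as an offset in each library, chosen after seeing the data, 78 members passed and all 78 were higher. The median was 0.61 over the 88 members tested and 0.63 among those called. Under the offset Rpl5 stood at 0.087 (adjusted p = 0.268), Rpl7 at 0.093 (0.0813) and Rps4x at -0.13 (0.0562), so none of the 3 falls kept its call. Their transcripts hold 42.7%, 45.8% and 48.5% GC. The core medians by bin then were 0.64, 0.72, 0.63, 0.60 and 0.54, and Rps2, Rpl8 and Rpsa stood at 0.73, 0.68 and 0.67. Whether the GC trend is technical was not tested.

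**Figure D3:**
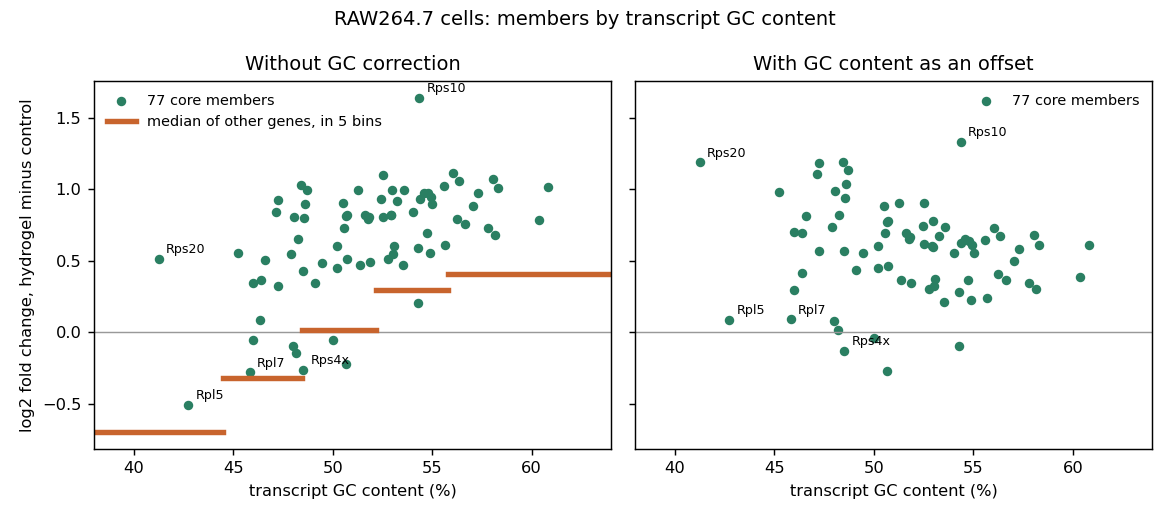
Log2 fold change in RAW264.7 cells (vertical axis, hydrogel minus control) of the 77 core members against transcript GC content (%, horizontal axis), without a correction at left and with GC content as an offset at right; orange lines are medians of the other genes in 5 bins of GC content. At left the members' folds climb with GC content, with Rpl5 lowest at -0.51, and at right their medians by bin lie between 0.54 and 0.72.

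Paralogs are set beside their partners, without a test of the difference. Rps27l, a p53 target that can replace Rps27 in the small subunit, had 314, 271 and 219 CPM in the hydrogel libraries and 84.1, 86.6 and 84.8 in the controls. All hydrogel libraries were above the controls, and the log2 rise of 1.65 ± 0.11 (adjusted p = 5.18e-07) was the largest of the members that passed. Its transcript holds 43.1% GC, and the value under the GC offset was 2.23. Rps27 itself rose by 0.82 ± 0.11. Per length, Rps27l stood at 29.7% of the Rps27 level in controls and 52.9% in the hydrogel group. Rpl22l1, the paralog of Rpl22, had 72.2, 63.98 and 53.2 against 49.3, 55.5 and 50.6, which overlap (0.28 ± 0.10, adjusted p = 0.0301), while Rpl22 rose by 0.93 ± 0.08. Per length, Rpl22l1 stood at 39.7% of Rpl22 in controls and 25.3% in the hydrogel group. Its transcript holds 40.6% GC, and these per-length values carry no GC correction. Over 16 alternatives the Rpl22l1 log2 fold change ran from 0.20 to 0.99, and the call was kept in 11. Rpl7l1, whose partner Rpl7 was lower, had 188, 214 and 216 against 124, 124 and 127, a rise of 0.72 ± 0.07.

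Members were also compared by features that the selection did not use. The 13 core members with a TOP tract at the start had a median log2 fold change of 0.80 in the cells, with 12 higher and 0 lower, and the 44 with a RefSeq start but no tract there had 0.76, with 37 higher and 2 lower. Some of these 44, among them Rpl13a and Rps2, carry a tract within 5 bases of the annotated start. Median GC content was 54.3% and 51.0% in these sets, and under the GC offset the medians were 0.65 and 0.62. Many ribosomal protein genes carry small nucleolar RNA genes in their introns. The 30 core members with at least 1 had a median of 0.76, and the 47 without had 0.79.

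Genes that work with the ribosome were taken as lists, to be read against the 34.7% of all genes that were higher in the hydrogel cells and the 37.8% that were lower. Fau and Rack1, which encode small subunit proteins under other names, rose in the cells by 0.83 each. Of 18 elongation and other TOP mRNA genes 11 rose and 3 fell, with Eef1d at 1.00 and Eef1g at 0.95 but Eef1a1, the main carrier of aminoacyl-tRNA, at -0.25 and Npm1 at -0.22. Of 28 initiation factors 14 rose and 8 fell, and of 15 genes of RNA polymerase I, which transcribes ribosomal RNA, 9 rose and 4 fell. Of 87 ribosome assembly factors 46 rose and 28 fell, among them Nop2 (1.29) and Rrs1 (1.35). Of 78 mitochondrial ribosomal protein genes 69 rose and 2 fell, with a median of 0.78, beside 0.74 for the cytosolic ones. Myc had 83.3, 79.2 and 79.3 CPM against 21.1, 20.1 and 19.0, a log2 rise of 2.01 without overlap. It belongs to a list of regulators of ribosome synthesis, of which 13 of 28 tested rose and 7 fell. With the control libraries summed, 37 assembly factors were higher and 19 lower, 11 initiation factors higher and 6 lower, and 62 mitochondrial ribosomal protein genes higher and 0 lower, where 24.8% and 29.4% of all genes passed. With the GC offset, where 35.7% and 35.2% of all genes passed, 60 assembly factors were higher and 15 lower, and 21 initiation factors were higher and 5 lower.

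In wounds no core ribosomal protein gene passed the test for hydrogel against control on any day. On day 1, 0 of 90 members tested passed by edgeR's quasi-likelihood test, where 7.55% of 17592 genes did, 4.53% higher and 3.02% lower. An unadjusted p below 0.05 was reached by 3 members, while DESeq2 gave 1 call and limma-voom, run with quality weights, gave 55, all lower. Over all genes DESeq2 called 2586 and limma-voom 4280. The median log2 fold change was -0.29 (0.04 over all genes), with 82 of the 90 below 0, but the groups were apart in 0 members that were higher and 1 that was lower, where 9.57% and 7.52% of all genes were.

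The day 1 values turned on 1 hydrogel library. Rps19 had 1020.5, 409.5 and 418 CPM in the hydrogel wounds and 921, 694 and 767 in the controls. Replicate 1 lay above all controls and the other 2 below all of them. Rpsa repeated this with 3549.8, 1642 and 1665 against 2768, 2203 and 2188. So did Rplp0, with 1596, 1070.1 and 1070.0 against 1108, 1294 and 1398. Replicate 1 was the highest of the 3 in 72 of the 77 core members. Without it 15 members passed, all lower, where 5.53% of all genes were, with a median over the members tested of -0.66. Without all 3 libraries that stood apart, chosen after seeing the data, 65 members were lower, where 13.4% of all genes were. With only hydrogel replicate 1 left out, Rps6 stood at -0.85, Rps19 at -0.94 and Rpl35 at -0.997. The summed skeletal muscle markers were 114961 in that library and 181305 and 205995 in the other 2, and the part of this in the ribosomal protein values was not tested.

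**Figure D4:**
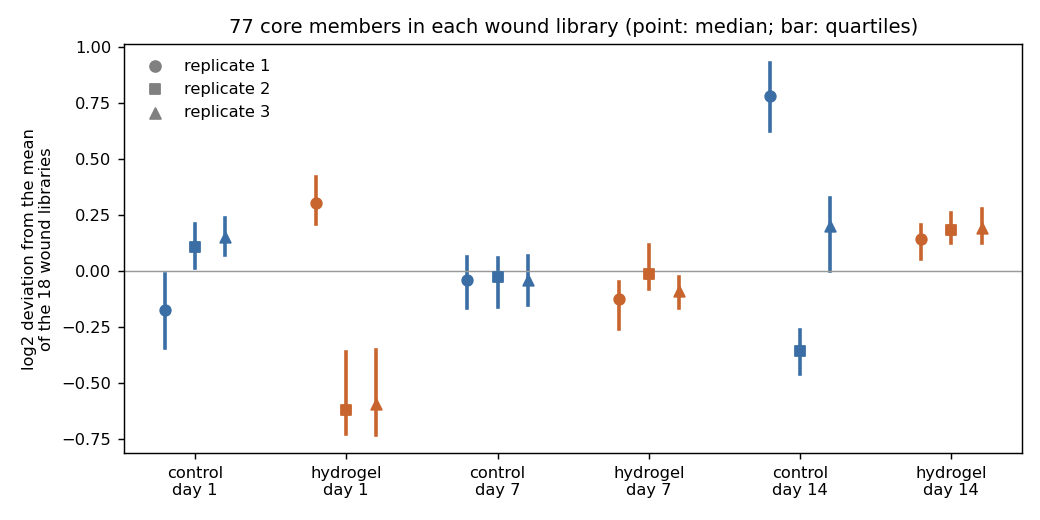
Median log2 deviation of the 77 core members from the mean of the 18 wound libraries (vertical axis; bars are quartiles over members), for each library by group. Replicate 1 of the day 14 controls sits at 0.78 and replicate 1 of the day 1 hydrogel wounds at 0.30, against -0.62 and -0.59 for the other day 1 hydrogel libraries.

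On day 7, 3 of 90 members passed, where 21.6% of all genes did, and all 3 were paralogs or copies. The median over members was -0.02. The groups did not overlap in 26 members that were higher and 25 that were lower, where 35.3% and 34.9% of all genes were apart. Rps19 had 591, 742 and 679 CPM in hydrogel wounds and 902, 913 and 929 in controls, apart but not called (-0.45 ± 0.35). Rplp0 had 1122, 1127 and 1225 against 892, 902 and 927 (0.35 ± 0.27), also not called. Fitting the 2 day 7 groups alone called 42 members, 18 higher and 24 lower, where 70.2% of all genes passed. After summing the day 7 libraries to 1 a group, 0 members and 0 genes in all passed.

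Rpl3l, the muscle form of Rpl3, had 365, 368 and 389 CPM in the day 7 hydrogel wounds and 81.1, 81.2 and 82.3 in the controls. The groups lay far apart, with a log2 rise of 2.198 ± 0.71 (edgeR's quasi-likelihood test, adjusted p = 0.0395). Its partner Rpl3 had 434, 484 and 462 against 512, 508 and 519 and did not pass (-0.16 ± 0.34). Per length Rpl3l stood at 132 ± 7.52% (SD, n = 3) of Rpl3 in the hydrogel wounds and 25.7 ± 0.123% in the controls. The 12 skeletal muscle markers summed to 116870, 109028 and 123841 CPM in the same hydrogel libraries and to 36022, 35523 and 35810 in the controls. Their part in the Rpl3l difference was not tested.

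The other calls of day 7 were lower in the hydrogel wounds. Rpl39l, a form of Rpl39 best known from testis, had 2.44, 3.86 and 2.61 CPM against 18.7, 19.4 and 18.6 (-2.66 ± 0.88, adjusted p = 0.0414). Rps4l, a copy related to Rps4x, had 10.3, 10.2 and 12.5 against 35.3, 36.0 and 37.1 (-1.72 ± 0.53, adjusted p = 0.0319). Rpl39 and Rps4x stood at -0.11 and 0.02. Marker lists of several cell types moved the same way as both. All 10 adipocyte markers fell, with sums of 1022, 1033 and 1110 against 37308, 36790 and 37083 CPM. All 9 fibroblast markers (sums of 1718 to 1885 against 11062 to 11259), all 11 macrophage markers (371 to 423 against 2759 to 2780), 7 of 8 endothelial markers (334 to 347 against 1237 to 1255) and all 6 erythrocyte markers tested (124 to 151 against 1238 to 1263) fell as well. The part of these in the Rpl39l and Rps4l values was not tested. All 3 calls of day 7 were lost when any single day 7 library was left out and when the libraries of each day 7 group were summed to 1 (adjusted p from 0.758 to 0.766), while the folds kept their sign.

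**Figure D5:**
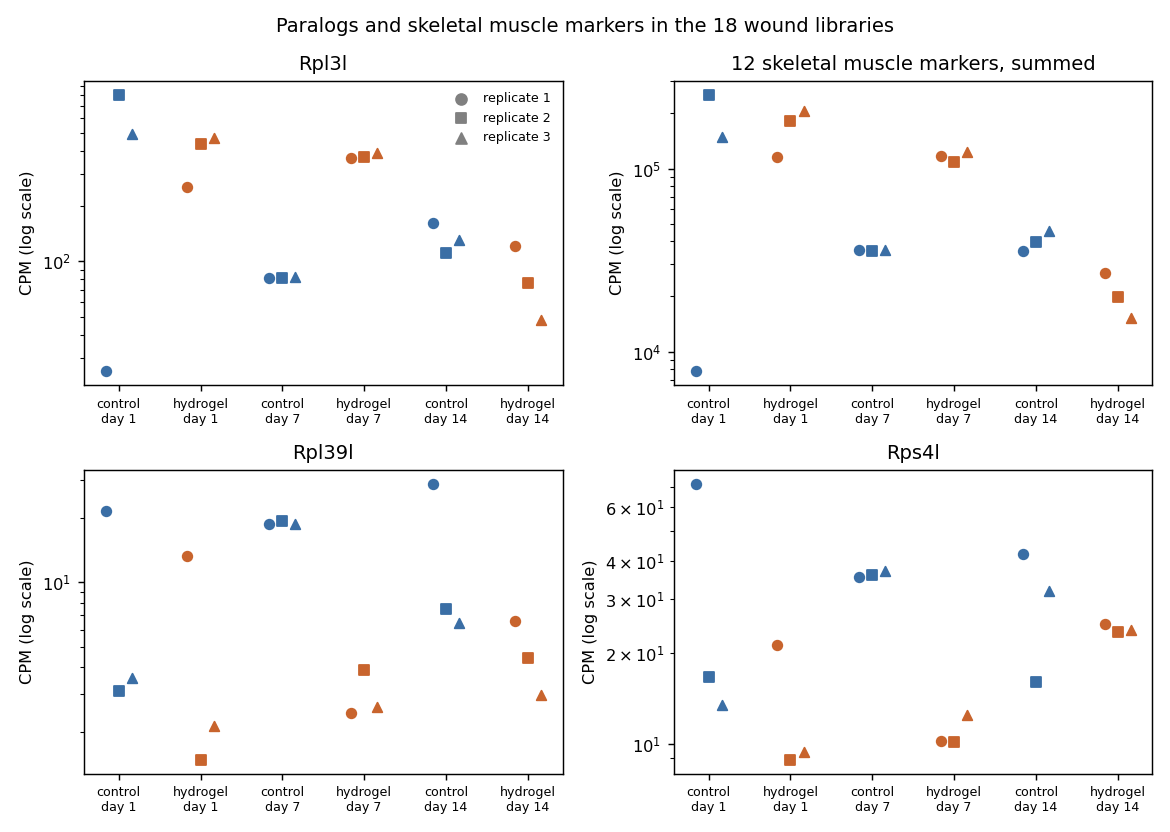
CPM (vertical axes, log scale) of Rpl3l, of 12 summed skeletal muscle markers, of Rpl39l and of Rps4l in each of the 18 wound libraries, by group and replicate. Rpl3l and the muscle markers are both lowest in replicate 1 of the day 1 controls (25.3 and 7813) and highest in replicate 2 (803 and 252636).

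On day 14, 0 of 90 members passed, where 16.1% of all genes did. An unadjusted p below 0.05 was reached by 2 members, DESeq2 called 0 and limma-voom called 24, all higher (member median 0.31). Over all genes DESeq2 called 3972 and limma-voom 5828. In edgeR's fit the median was -0.11, and the groups were apart in 3 members that were higher and 0 that were lower (23.8% and 20.0% over all genes). The day 14 controls were widely spread. Rpl11 had 1398, 718 and 1302 CPM in the controls and 1015, 1066 and 1054 in the hydrogel wounds, and Rpl41 had 2742, 1098 and 967 against 1585, 1502 and 1405. In both genes the hydrogel libraries lay inside the control range. Replicate 1 was the highest control in 74 of the 77 core members, and the median coefficient of variation over these members was 39.9% in the controls and 3.44% in the hydrogel wounds. Fibroblast markers summed to 49198 CPM in that replicate and to 19897 and 11803 in the other 2, and their part was not tested. Without that replicate 0 members passed, where 6.97% of all genes did, and the median turned to 0.21. Without all 3 libraries that stood apart, chosen after seeing the data, 20 members passed, all higher (median 0.21), where 13.1% of all genes were. The direction of the day 14 median thus rests on 1 control library. A test of whether the hydrogel effect differed between days called 0 members (15.8% of all genes). 1 member, Rpl3l, had an unadjusted p below 0.05 there, DESeq2 called 1 and limma-voom 83. Over all genes DESeq2 called 4527 and limma-voom 8769 in that test.

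Over time, few members passed in either arm. In the hydrogel wounds from day 1 to day 14, 75 of the 77 core members had a log2 fold change above 0, with a median of 0.41. Over all members tested, 5 of 90 rose and 1 fell, where 47.8% of all genes passed, 21.8% higher and 26.1% lower. The days did not overlap in 19 members that were higher and 1 that was lower (29.6% and 29.7% over all genes). Rpl21 had 14.3, 14.2 and 12.3 CPM on day 1 and 23.3, 28.4 and 22.6 on day 14, with no overlap (0.87, adjusted p = 0.00589), and kept its call under all 18 alternatives. Rps10 had 2.75, 3.52 and 2.43 against 8.88, 9.89 and 11.2 (1.78), but with the counts of its -ps copies added the value was 0.46 and the call was lost (adjusted p = 0.272). Rpl13a rose by 1.14 and kept its call in 14 of 18 alternatives, Rpl29 rose by 0.82 and kept it in 13, and Rps26 rose by 0.77. Rps26 had 879, 427 and 462 on day 1 and 928, 1019 and 1065 on day 14, and lost its call in 8 of 18 alternatives. Rpl3l fell by 2.24, from 253, 436 and 470.3 to 121, 76.5 and 48.0, and kept its call in 14 of 18. Muscle markers went from 114961, 181305 and 205995 to 26902, 19991 and 15310, and their part was not tested. Without replicate 1 of the day 1 hydrogel wounds, 44 members were higher on day 14 and 1 was lower, where 22.3% and 26.7% of all genes were.

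From day 1 to day 7 the hydrogel wounds held 1 call, Rpl36al, a paralog of Rpl36a, which fell by 2.25. Of all genes 18.3% passed, 7.76% higher and 10.5% lower, and the days were apart in 1 member that was higher and 2 that were lower (19.6% and 20.7% over all genes). Rpl36al had 0.601, 1.10 and 0.776 CPM on day 1 and 0.215, 0.224 and 0.0668 on day 7, and 38.9% of its exon bases are shared with another symbol. Without replicate 1 of the day 1 hydrogel wounds, 13 members passed and 12 of them were higher on day 7, where 10.7% of all genes were. With the day 7 libraries summed, 0 members and 1 gene in all passed. In the controls from day 1 to day 7, 2 of 90 members passed, where 31.6% of all genes did. The days were apart in 4 members that were higher and 22 that were lower (26.1% and 23.8% over all genes). The 2 that passed were Rpl36al, which fell by 1.97, and Rpl3l, which fell by 2.44. Rpl3l went from 25.3, 803 and 495 to 81.1, 81.2 and 82.3, which overlap, and without replicate 2 of day 1 the fold was -1.67 and the call was lost (adjusted p = 0.1101). Without replicate 1 of day 1, 5 members passed, 2 higher and 3 lower (median -0.19), where 43.8% of all genes passed. With the day 7 libraries summed, 0 members and 97 genes in all passed.

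In the controls from day 1 to day 14, Rpl13a rose by 1.30 and Rpl36al fell by 1.48, 2 of 90 members where 32.4% of all genes passed, 16.7% higher and 15.7% lower. The days did not overlap in 1 member that was higher and 1 that was lower (14.5% and 15.1% over all genes). Rpl13a had 44.4, 25.2 and 30.2 CPM on day 1 and 77.7, 57.1 and 110.3 on day 14. The days did not overlap, yet the call was lost without replicate 2 of day 1 or without replicate 3 of day 14 (adjusted p of 0.0651 and 0.0640). Core members were above 0 in 67 of 77, with a median of 0.25. With all 3 libraries that stood apart left out together, chosen after seeing the data, 22 members passed and 19 of them were lower on day 14, where 53.2% of all genes passed and 25.4% were lower. The member median, 0.24 with every library, was then -0.17, and it was -0.14 without replicate 1 of the day 14 controls alone.

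Genes that build ribosomes gave many calls in the wounds, and those given here rest largely on counting each day 7 library as a replicate. Of 87 assembly factors, 78 fell in the controls from day 1 to day 7 (median -1.17), where 16.6% of all genes were lower, among them Ddx56 (-1.33), Rrp9 (-1.84) and Nifk (-1.40). Of 28 initiation factors 25 fell, including Eif6 (-1.65), which keeps free large subunits apart from small ones, and of 15 RNA polymerase I genes 10 fell. After summing the day 7 libraries to 1 a group, none of these 3 lists held a call, while the assembly factors' median was -1.14. All 9 fibroblast markers and 7 of 11 macrophage markers rose in the same comparison, and 5 of 9 basal and 7 of 9 suprabasal keratinocyte markers fell. In the hydrogel wounds over the same days 27 assembly factors and 18 initiation factors fell, where 10.5% of all genes were lower. With the libraries summed 0 of either fell, and 1 gene in all passed.

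Against the controls of the same day, the hydrogel wounds had 23 assembly factors higher and 0 lower on day 7 (Rrp12 at 1.66, Nob1 at 1.07; median 0.56), where 9.86% of all genes were higher. With the day 7 libraries summed the count was 0 and the median 0.55. On day 14 there were 20 higher and 0 lower (Gar1 at 1.27, Fbl, the methyltransferase of ribosomal RNA, at 1.06), where 5.83% of all genes were higher. That count was 4 without replicate 1 of the day 14 controls, 1 with the day 7 libraries summed and 0 when only the day 14 groups were fitted. On day 7, 7 of 9 basal and 5 of 9 suprabasal keratinocyte markers were higher in the hydrogel wounds, and all 9 fibroblast and all 11 macrophage markers were lower. On day 14 the same fibroblast and macrophage lists were lower throughout (2292 to 2915 against 11803 to 49198 CPM, and 85.1 to 121 against 576 to 4795), and no keratinocyte marker passed. The part of these marker changes in the assembly factor values was not tested. These comparisons share control libraries and are not independent. Fau and Rack1 passed in none of these wound comparisons.

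Among core members, the folds between hydrogel and control wounds went with coding length and, less evenly, with GC content. For coding length Spearman's rho across the 77 was 0.41 on day 1, 0.57 on day 7 and 0.34 on day 14, and over all genes tested with a coding length it was 0.21, 0.08 and 0.10. For GC content rho across the 77 was 0.25, 0.10 and 0.40, and over all genes it was 0.06, 0.03 and 0.06. Each value describes 1 pair of groups across genes that share the same libraries.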

How the data were processed

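The authors deposited featureCounts tables of whole-number read-pair counts per gene symbol, 1 for each of 24 libraries. Per the submitters' processing notes, Trim Galore 0.6.10, FastQC 0.11.9, HISAT2 2.2.1, SAMtools 1.9 and featureCounts 2.0.6 were used, with mm10. Per the file headers, exons of GENCODE M25 were counted by gene name, without strand, and pairs that mapped to several places or genes were not counted. The read filter before counting is not given in the sources used here.

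Counts were tested with edgeR 4.0.16 (R 4.3.3; robust quasi-likelihood F test, TMM scaling, filterByExpr with a minimum count of 10 and a minimum total of 15, Benjamini-Hochberg over all genes, threshold 0.05). The 18 wound libraries shared 1 fit (17592 genes, 12 residual degrees of freedom) and the 6 cell libraries another (12972 genes, 4 residual degrees of freedom). The script was first tested on simulated data. CPM values use TMM-scaled library sizes, and folds are log2 with standard errors derived from the F statistic. Alternatives used DESeq2 1.42.0, limma 3.58.1, other scalings and filters, left-out libraries, a replicate block and added -ps copies. GC content came from GENCODE M21 transcripts (GRCm38).

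The members and all gene lists were chosen with earlier results of these data known. Named by rule were paralogs with partners, a panel of 10 genes, up to 5 members a direction by fold among those that passed without overlap, the member with the smallest adjusted p, and up to 3 genes a pathway list. Members that did not pass or lay at either end of the range in cells, low-count members, the members with the highest levels and Rpl35, Eef1a1, Npm1 and Myc were named after their values were seen. The result of 1 gene of the pathway lists is not reported here.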

Additional observations from a re-analysis of the deposited data

How the results depend on the processing

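In the cells the count of members called stayed mostly upward and within 1.5 times under every alternative run. Leaving out each library in turn gave 76 to 83 calls, and RLE scaling, other filters, DESeq2, limma-voom, the -ps copies, the GC offset and the summed controls gave 71 to 83. With no filter on low counts, which also changes the scaling, the members' median was 0.85 in place of 0.74, with 79 higher and 1 lower. Under the GC offset Rpl5 (0.087) and Rpl7 (0.093) changed sign. The wound counts were small and moved with the fit. Limma-voom with quality weights called 55 members on day 1, 43 on day 7 and 24 on day 14 for hydrogel against control, 25 and 12 in controls on day 7 and day 14 against day 1, 50 and 83 in hydrogel wounds, and 83 for the difference between days. Over all genes it called 4280, 12321, 5828, 10179, 6674, 9206, 12441 and 8769 in the same order. Leaving out the 3 libraries together, chosen after seeing the data, gave 65, 17, 20, 21, 22, 50, 78 and 79 members in the same order. Over all genes it gave 6454, 9152, 5032, 10987, 9664, 9290, 12066 and 9325. DESeq2 called 1 on day 1 and 1 for the difference between days. Fitting only the groups compared gave 42 on day 7, 0 in controls on day 14 against day 1 and 0 in hydrogel wounds on day 7 against day 1. Summing the day 7 libraries of each group gave 0 on day 7, 0 and 1 in controls and 0 and 2 in hydrogel wounds. With no filter on low counts there was 0 on day 7 and 1 in each control time comparison. With the stricter filter there was 1 in each control time comparison and 0 in hydrogel wounds on day 7 against day 1. Leaving out each library in turn gave 0 to 15 calls on day 1, 0 to 0 on day 7, 0 to 1 on day 14, 1 to 5 and 0 to 3 in the control time comparisons, 0 to 13 and 3 to 45 in the hydrogel ones, and 0 to 3 for the difference between days. The cause of these shifts was not tested.

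Among members named by rule, changes of sign on day 14 included Rpl41 (0.53), Rplp1 (0.49) and Rps4x (0.41) without the 3 libraries. With limma-voom Rplp1 stood at 0.52. The median over all members tested went from -0.11 to 0.21 and 0.31 in these fits, so the change was not confined to these members. In controls on day 14 against day 1 they included Rpl10 (-0.60 with limma-voom, -0.65 without the 3 libraries) and Rps27 (-0.72 and -0.64). Rplp1 (-0.52), Rps29 (-0.57) and Rps4l (0.68) did so without the 3 libraries. There the median over all members went from 0.24 to -0.25 with limma-voom and -0.17 without the 3 libraries. In hydrogel wounds on day 14 against day 1 they included Rpl39l (1.01 with limma-voom, 1.36 without the 3 libraries). With TMM-scaled library sizes the summed share was 6.33% in day 1 controls, 5.83% in day 7 controls, 6.71% in day 14 hydrogel wounds and 3.90% in control cells. With -ps copies added it was 6.56%, 9.07% and 4.15% in the last 3 of these groups.

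Titles give the groups the same replicate numbers. Deviations of same-numbered libraries from their group means had correlations of 0.374, 0.265 and 0.0913 on day 1 and 0.0923, 0.0315 and 0.0368 on day 7. They were 0.147, -0.0181 and 0.240 on day 14 and -0.00497, 0.0133 and -0.0185 in the cells. Differently numbered libraries were not correlated, so these values cannot decide whether the numbers mark pairs. The numbers were not taken as pairs in the main fit. A replicate block gave 79 calls in the cells, 4 on day 7 and 8 in hydrogel wounds on day 14 against day 1, with 0 on day 1 and day 14, and moved no count by over 1.5 times. With 3 libraries a group, folds of the size seen in the wounds carry standard errors near 0.3, so a p that misses the threshold does not show equal levels.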
